A study of Mus musculus with 12 samples.

Results

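The protamines Prm1 and Prm2, transition proteins Tnp1 and Tnp2, and Smcp, Oaz3, Odf1, Akap4, Gapdhs and Spata3 are 10 mouse genes transcribed in spermatids. Except for Oaz3 and Spata3, their products belong to the condensing nucleus, the midpiece or the tail of the sperm cell. Oaz3 encodes an antizyme, and Spata3 is described here only as a gene expressed in testis. They were taken by name and matched by symbol to the gene identifiers of the deposited count table, 10 of its 53715 genes. All 10 have counts in every library and all 10 passed the filter on low counts. The names were chosen by a reading of the counts of these same libraries, with no threshold or contrast given, so their levels and fold changes are given as a description and support nothing by themselves.

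The counts come from 12 libraries of spermatogonia, the mitotic and stem germ cells of the testis, from C57BL6/129 mice. The 4 groups of 3 libraries are Tet1KO at 11 months, WT at 11 months, Tet1KO at 3 months and WT at 3 months. Tet1 encodes a dioxygenase that oxidises 5-methylcytosine in DNA. The knockout allele and whether other tissues lack the gene are not given in the labels. A library holds the RNA of 1000 sorted cells, amplified by Smart-seq2, which copies whole transcripts from very little RNA, per the labels. Nothing in the labels says whether replicates are different animals, so a p-value here speaks for the spread among the libraries, and that spread may be technical.

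In spermatids, histones are first exchanged for transition proteins and these for protamines, which pack the DNA of the sperm head. Transcription stops as the nucleus condenses, so the messages for these proteins are made in round spermatids, stored, and translated later in elongating spermatids. The activator CREM, which binds cAMP response elements of the form TGACGTCA and variants of it, is known to switch on many of these genes in round spermatids. In a sort of spermatogonia, these are the messages of the far end of the lineage.

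Promoter sequences are shown because the 10 genes were high and low in nearly the same libraries and are known as a group for regulation at their promoters. Each line gives the 120 bases before the start of transcription, 5′ to 3′ along the gene, from RefSeq in the build GRCm38.p6, with every match to TGANNTCA in capitals.
Prm1: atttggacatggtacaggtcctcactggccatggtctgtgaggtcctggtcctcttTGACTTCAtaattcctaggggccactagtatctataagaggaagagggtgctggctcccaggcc
Prm2: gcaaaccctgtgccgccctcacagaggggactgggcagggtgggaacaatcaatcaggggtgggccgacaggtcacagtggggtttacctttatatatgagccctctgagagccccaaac
Tnp1: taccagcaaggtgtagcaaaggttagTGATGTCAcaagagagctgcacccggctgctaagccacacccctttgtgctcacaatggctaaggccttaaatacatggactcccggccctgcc
Tnp2: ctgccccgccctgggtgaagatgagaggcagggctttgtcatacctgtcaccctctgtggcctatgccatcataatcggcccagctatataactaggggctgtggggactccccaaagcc
Akap4: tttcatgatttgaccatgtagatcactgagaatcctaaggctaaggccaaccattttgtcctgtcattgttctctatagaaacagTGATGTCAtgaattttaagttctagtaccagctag
Gapdhs: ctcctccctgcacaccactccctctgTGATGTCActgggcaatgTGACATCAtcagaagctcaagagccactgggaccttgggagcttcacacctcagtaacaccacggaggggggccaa
These lie at chr16:10796824-10796943 for Prm1, chr16:10792106-10792225 for Prm2, chr1:73015900-73016019 for Tnp1, chr16:10788656-10788775 for Tnp2 and chr7:30743682-30743801 for Gapdhs, all on the minus strand, and at chrX:7067395-7067514 for Akap4, on the plus strand. Akap4 and Gapdhs have a second listed start each, not printed.

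The match begins at -64 from the start in Prm1, at -94 in Tnp1 and at -35 in Akap4, and Gapdhs has a pair of matches at -94 and -76. TGANNTCA was searched on both strands, which it reads alike because it is its own reverse complement, over 250 bases before to 50 bases after each start. It was found in 6 of the 8 genes with an entry in the table, or 8 of their 10 listed starts, against 14.1% of all 32851 promoters of that length. The spelling TGATGTCA, which is a special case of TGANNTCA, was found on either strand in 4 of the 8 genes, against 3.62% of all promoters. By starts it was 5 of the 10, with both listed starts of Gapdhs among them. The bases around the matches are nearly the same at both Gapdhs starts. These starts are therefore not independent entries, here or in the 8 of 10 starts above. The complete element TGACGTCA was found at 0 of the 10 starts, against 1.79% of all promoters. Spata3 had TGACCTCA at -51, Smcp had TGATGTCA after its start, and Prm2 and Tnp2 had no TGANNTCA in the bases searched. Oaz3 and Odf1 had no entry. The letters searched were chosen after these sequences had been seen, and a match is a description, not a site of binding.

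Total counts per library ran from 8325159 to 18223645, and 19815 genes passed the filter on low counts. All 16 spermatogonial markers were counted in all 12 libraries, at levels far apart in CPM (counts scaled to library size with the trimmed mean of M-values). Dazl, a germ cell translation regulator, ran from 1651 to 2503 CPM, Zbtb16 from 1.83 to 13.7 CPM and Lin28a from 1.39 to 7.59 CPM. These genes were named after their values were seen. Such counts do not show what share of the cells were spermatogonia, so they do not check the cell label. Tet1 itself had 1, 17 and 5 counts in Tet1KO and 1, 16 and 5 counts in WT at 11 months, and 6, 11 and 18 counts in Tet1KO and 15, 16 and 0 counts in WT at 3 months, so its counts do not check the genotype labels. The first principal component, with 39.0% of the variance, set apart Tet1KO replicate 2 and WT replicate 1 of 3 months, which had a count for 30010 and 29420 genes, against at most 26995 in any other library. Medians without these libraries are given below beside each comparison at 3 months. The second component set apart replicate 1 of Tet1KO and WT at 11 months, at -70.5 and -64.2. On it the other libraries ran from -17.1 to 53.1. The library code of Tet1KO replicate 1 and of WT replicate 2 of 3 months begins with DY and that of the other 10 libraries with AK, and medians without the DY libraries are given beside each comparison they move.

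All 10 genes together took 0.292, 0.155 and 0.0428% of the counts in Tet1KO libraries and 0.309, 0.0713 and 0.0330% in WT libraries at 11 months, in the order of replicates 1 to 3. At 3 months they took 0.0808, 0.176 and 0.0985% in Tet1KO libraries and 0.336, 0.110 and 0.0525% in WT libraries. The groups overlapped at both ages, and the libraries of 1 group differed more than the groups did. In sorted bulk cells, fewer cells of a type and less RNA per cell cannot be told apart.

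**Figure D1:**
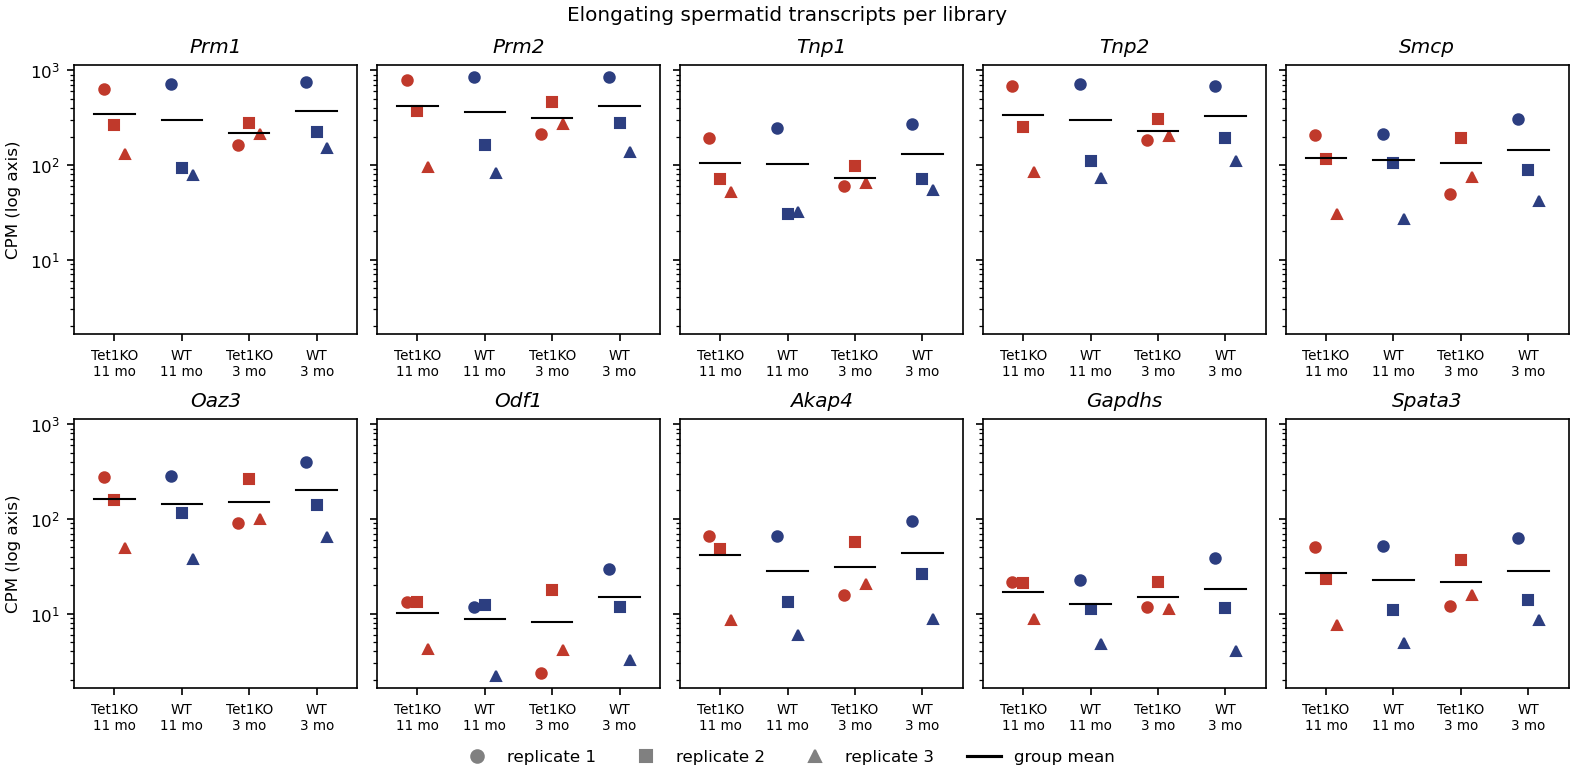
Level of each of the 10 genes in each library, in CPM on a log axis shared by all panels, with Tet1KO in red, WT in blue, the replicate number by symbol and the group mean as a bar. Replicate 1 of both genotypes at 11 months, WT replicate 1 and Tet1KO replicate 2 at 3 months stand highest for 9 of the 10 genes, and no pair of groups separates for any gene.

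The nuclear proteins come first. Prm1 (ENSMUSG00000022501.6, chromosome 16, 10796326 to 10805839 in mm10, minus strand), which encodes protamine 1, the main DNA-packing protein of the sperm head, stood at 641, 262 and 129.7 CPM in Tet1KO and 722, 92.6 and 77.7 CPM in WT at 11 months. At 3 months Prm1 stood at 163, 275 and 213 CPM in Tet1KO and 747, 225 and 153 CPM in WT. Each group except Tet1KO at 3 months held 1 library far above its other 2, and every group overlapped every other. Prm2 (ENSMUSG00000038015.6, chromosome 16, 10791380 to 10796134), whose precursor is cut to the mature protamine 2 on the DNA, stood at 786, 375 and 94.5 CPM in Tet1KO and 840.5, 161 and 82.2 CPM in WT at 11 months. At 3 months it stood at 214, 463 and 273 CPM in Tet1KO and 840.4, 279 and 139 CPM in WT. The same libraries were high for both protamines, though Tet1KO replicate 2 of 3 months came closer to the highest libraries for Prm2 than for Prm1.

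Tnp1 (ENSMUSG00000026182.6, chromosome 1, 73015074 to 73015909), the gene of transition protein 1, stood at 194, 70.7 and 52.3 CPM in Tet1KO and 247, 30.7 and 32.2 CPM in WT at 11 months. At 3 months Tnp1 stood at 59.6, 97.0 and 64.6 CPM in Tet1KO and 269, 70.9 and 54.3 CPM in WT. Only its replicate 1 libraries of 11 months and WT replicate 1 of 3 months exceeded 100 CPM. Tnp2 (ENSMUSG00000043050.8, chromosome 16, 10787936 to 10788660), the gene of transition protein 2, stood at 683, 253 and 84.8 CPM in Tet1KO and 714, 111 and 72.1 CPM in WT at 11 months. At 3 months it stood at 185, 303 and 204 CPM in Tet1KO and 683, 192 and 109 CPM in WT. Tnp2 lies beside Prm2 and Prm1 on chromosome 16, and all 3 genes ranked the libraries nearly alike. Reads of Tnp1 cannot be told from those of 1700027A15Rik on the opposite strand, since counting did not use strand.

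Genes of the midpiece and tail followed the same libraries with differences of degree. Smcp (ENSMUSG00000074435.10, chromosome 3, 92583867 to 92588997), whose cysteine-rich protein lies in the mitochondrial capsule of the midpiece, stood at 208, 117 and 30.1 CPM in Tet1KO and 211, 104 and 27.1 CPM in WT at 11 months. At 3 months Smcp stood at 49.7, 193 and 74.0 CPM in Tet1KO and 303, 89.5 and 41.9 CPM in WT. Replicate 2 of WT at 11 months, which was among the lowest libraries for the protamines, was mid-ranked for Smcp. Akap4 (ENSMUSG00000050089.13, chromosome X, 7067519 to 7078609, plus strand), a scaffold of the fibrous sheath of the tail that anchors protein kinase A, stood at 66.1, 48.5 and 8.44 CPM in Tet1KO and 65.9, 13.4 and 5.92 CPM in WT at 11 months. At 3 months it stood at 15.7, 56.6 and 20.3 CPM in Tet1KO and 95.1, 26.2 and 8.72 CPM in WT. Akap4 had the widest span of the 10 genes, with its highest library 16.1 times its lowest.

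Odf1 (ENSMUSG00000061923.4, chromosome 15, 38219203 to 38226735, plus strand), a protein of the outer dense fibres that stiffen the tail, stood at 13.2, 13.4 and 4.18 CPM in Tet1KO and 11.67, 12.2 and 2.19 CPM in WT at 11 months. At 3 months Odf1 stood at 2.38, 17.7 and 4.13 CPM in Tet1KO and 29.6, 11.7 and 3.22 CPM in WT. Unlike the protamines, Odf1 was as high in replicate 2 as in replicate 1 of both genotypes at 11 months. Gapdhs (ENSMUSG00000061099.12, chromosome 7, 30729775 to 30743681), the sperm form of the glycolytic enzyme glyceraldehyde 3-phosphate dehydrogenase, bound to the fibrous sheath, stood at 21.5, 20.8 and 8.77 CPM in Tet1KO and 22.4, 11.1 and 4.71 CPM in WT at 11 months. At 3 months it stood at 11.7, 21.6 and 11.2 CPM in Tet1KO and 38.9, 11.5 and 4.03 CPM in WT. Gapdhs thus also had its 2 Tet1KO libraries, replicates 1 and 2, nearly level at 11 months. Its exons overlap Tmem147os on the opposite strand, whose reads cannot be told apart.

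Oaz3 (ENSMUSG00000028141.11, chromosome 3, 94432414 to 94443915), the germ cell antizyme that restrains polyamine synthesis, stood at 274, 157 and 49.7 CPM in Tet1KO and 281, 116 and 37.4 CPM in WT at 11 months. At 3 months Oaz3 stood at 91.4, 261 and 99.0 CPM in Tet1KO and 396, 140 and 64.9 CPM in WT. Its exons overlap Mrpl9 and Tdrkh on the opposite strand, so part of its counts may be theirs. Spata3 (ENSMUSG00000026226.16, chromosome 1, 86016816 to 86029958, plus strand), a gene expressed in testis, stood at 50.1, 23.4 and 7.52 CPM in Tet1KO and 52.2, 10.9 and 4.82 CPM in WT at 11 months. At 3 months it stood at 12.1, 36.9 and 15.7 CPM in Tet1KO and 62.3, 14.1 and 8.59 CPM in WT. Spata3 followed the mean of the other 9 genes most closely of all, with a Pearson correlation of 0.99 in log2 CPM over 12 libraries, and Odf1 least closely, at 0.81. These are descriptions over libraries that share their preparation. The lowest count behind any of these values was 20 fragments.

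The order of the genes in each library can be compared only per length of exon. In CPM per kilobase averaged over 12 libraries, Tnp2 (540.3) and Prm1 (539.9) stood level, and Tnp2 exceeded Prm1 in 5 of 12 libraries. Prm2 followed at 424, below Prm1 in 10 of 12 libraries, then Tnp1 at 237, below Prm2 in 11, and Smcp at 132, below Tnp1 in 11. The order of Prm1 and Prm2 rests on their listed exon lengths, 571 and 894 bases. Before division by length Prm2 was the higher, with a mean of 379 CPM against 308 CPM. Oaz3 at 37.9 was below Smcp in all 12 and above Akap4 (11.9) in all 12. Its listed exons add up to 4326 bases over its isoforms, against 571 for Prm1, which lowers its value per kilobase. Akap4, Gapdhs (9.74), Odf1 (9.46) and Spata3 (9.33) were not separable, each above the next in 7 of 12 libraries.

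Over the 4 groups, the mean was highest in WT at 3 months for 9 genes and in Tet1KO at 11 months for Tnp2. The mean was lowest in Tet1KO at 3 months for 7 genes and in WT at 11 months for Oaz3, Akap4 and Gapdhs. Prm1, for example, averaged 344 ± 265.5 CPM in Tet1KO and 297 ± 368 CPM in WT at 11 months, and 217 ± 56.0 CPM in Tet1KO and 375 ± 324 CPM in WT at 3 months (SD, n = 3 each). For all 10 genes the gap between the highest and the lowest group mean was smaller than the largest SD within a group, so no neighbours in the order of groups differed beyond their spread.

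The spread had a shape that crossed the groups. WT replicate 1 of 3 months was the highest library for 8 genes and WT replicate 1 of 11 months for Prm2 and Tnp2, while WT replicate 3 of 11 months was the lowest for 8. From the lowest to the highest library the genes spanned 8.78-fold for Tnp1 up to 16.1-fold for Akap4. Within WT at 11 months, replicate 1 exceeded replicate 2 by 8.05-fold for Tnp1, 7.79-fold for Prm1, 6.45-fold for Tnp2 and 5.23-fold for Prm2. The same ratio was 4.93 for Akap4 and 4.78 for Spata3, and it was lower for Oaz3 at 2.43, Smcp at 2.03 and Gapdhs at 2.02. For Odf1 it was 0.95. The nuclear protein genes thus differed more between these libraries than Oaz3, Smcp, Gapdhs and Odf1 did. Within Tet1KO at 11 months the ratio of replicate 1 to replicate 2 was 2.75 for Tnp1 and 0.99 for Odf1, with the other 8 genes between them.

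Ratios of Prm1 to Prm2 and of Tnp2 to Tnp1 moved less than the levels of these genes. Counts of Prm1 over Prm2 ran from 0.58 in WT replicate 2 to 1.37 in Tet1KO replicate 3 of 11 months, and counts of Tnp2 over Tnp1 from 1.62 in Tet1KO replicate 3 to 3.61 in WT replicate 2 of 11 months. Counts of Odf1 over Prm1 varied most, from 0.0146 in Tet1KO replicate 1 of 3 months to 0.132 in WT replicate 2 of 11 months.

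Genes used earlier in the lineage were not high in all the libraries where these 10 were. At 11 months the 10 genes averaged 7.16, 6.32 and 4.76 log2 CPM in Tet1KO and 7.23, 5.35 and 4.23 in WT. A list of 20 genes active from pachytene spermatocytes to round spermatids averaged 3.62, 4.88 and 3.26 in Tet1KO and 3.64, 3.66 and 3.23 in WT there. At 3 months the 10 genes averaged 5.32, 6.71 and 5.63 log2 CPM in Tet1KO and 7.63, 5.89 and 4.84 in WT, and the earlier list averaged 2.97, 6.49 and 3.98 in Tet1KO and 6.44, 4.22 and 2.89 in WT. Replicate 1 of both genotypes at 11 months was high for the 10 genes and not for the earlier list, whereas Tet1KO replicate 2 and WT replicate 1 of 3 months were high for both. The 10 genes exceeded the earlier list by 3.548 and 3.595 log2 units in replicate 1 of Tet1KO and WT at 11 months, and by 0.21 and 1.19 in Tet1KO replicate 2 and WT replicate 1 of 3 months. In the other 8 libraries that difference ran from 0.995 to 2.35.

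**Figure D2:**
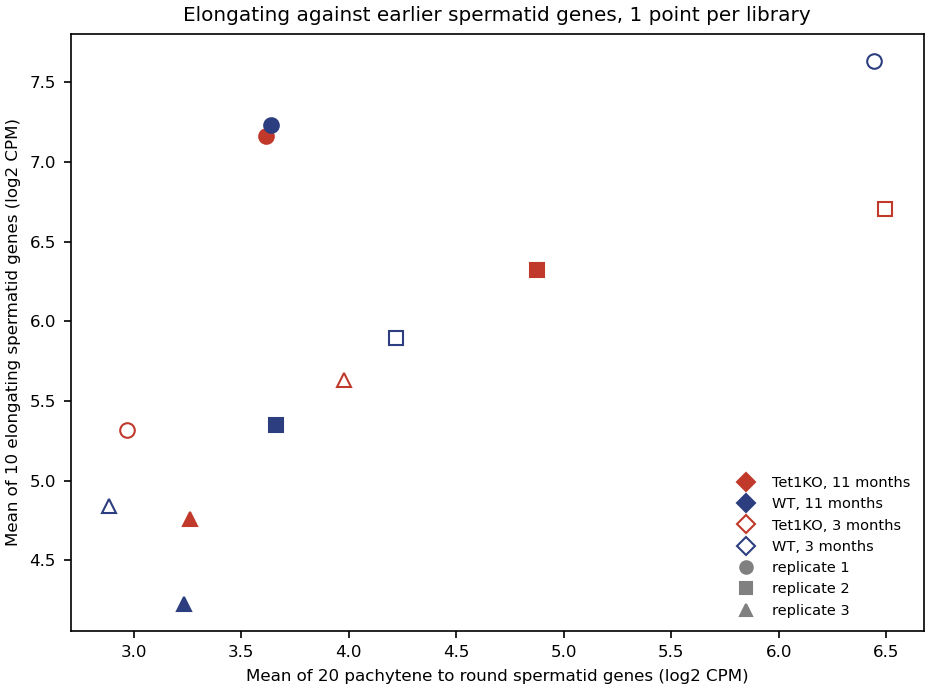
Mean log2 CPM of the 10 elongating spermatid genes against the mean of 20 pachytene to round spermatid genes, 1 point per library, with Tet1KO in red, WT in blue, filled symbols for 11 months and open symbols for 3 months. Replicate 1 of both genotypes at 11 months lies at 7.16 and 7.23 on the vertical axis with only 3.62 and 3.64 on the horizontal one, while Tet1KO replicate 2 and WT replicate 1 of 3 months lie at 6.49 and 6.44 on the horizontal axis.

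The earlier list was itself mixed. Of its 20 genes, 6 lay above their own mean over 12 libraries in replicate 1 of both genotypes at 11 months and 12 lay below it in both, while 19 lay above it in Tet1KO replicate 2 and WT replicate 1 of 3 months. The 6 were Hspa1l, at 1.40 and 1.08 log2 units above its mean in replicate 1 of Tet1KO and WT at 11 months, Tssk2 at 1.16 and 1.35, Theg at 1.14 and 0.55, Pgk2 at 0.72 and 0.83, Tex101 at 0.78 and 0.45 and Crisp2 at 0.083 and 0.211. All but Tex101 were named after their values were seen. Ldhc, the testis lactate dehydrogenase, stood at 165, 292 and 71.6 CPM in Tet1KO and 106, 114 and 98.5 CPM in WT at 11 months, and at 47.3, 1589.6 and 199.6 CPM in Tet1KO and 1545, 173 and 97.4 CPM in WT at 3 months. Ldhc was therefore highest in Tet1KO replicate 2 and WT replicate 1 of 3 months, and unremarkable in replicate 1 of 11 months. Meig1, needed for building the sperm tail, had 126 and 105 CPM in replicate 1 of Tet1KO and WT at 11 months and 602 and 751 CPM in those libraries of 3 months. Acrv1, an acrosome gene, named after its values were seen, had 1.29 and 2.59 CPM in replicate 1 of Tet1KO and WT at 11 months and 61.2 and 81.1 CPM in those libraries of 3 months. Tex101, a germ cell surface glycoprotein gene found from spermatocytes on, had 1748, 633 and 795 CPM in Tet1KO and 1389, 916 and 895 CPM in WT at 11 months.

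Of 12 further nuclear and perinuclear genes, 9 lay above their own mean over 12 libraries in replicate 1 of both genotypes at 11 months, and all 12 in Tet1KO replicate 2 and WT replicate 1 of 3 months. The exceptions at 11 months were Actl7b, at -1.59 and -1.45 log2 units from its mean in replicate 1 of Tet1KO and WT, Ccin, at -0.65 in Tet1KO and 0.55 in WT, and Actl7a, near its mean at 0.145 and -0.019. These exceptions were named after their values were seen. Hils1, a spermatid linker histone, stood at 76.1, 49.4 and 12.2 CPM in Tet1KO and 77.7, 19.5 and 12.1 CPM in WT at 11 months, and at 20.6, 148 and 48.4 CPM in Tet1KO and 193, 34.5 and 14.9 CPM in WT at 3 months. Prm3 had 46.8 and 39.4 CPM in replicate 1 of Tet1KO and WT at 11 months, and its highest values, 47.1 and 84.2 CPM, in Tet1KO replicate 2 and WT replicate 1 of 3 months. Spem1, needed for shedding the cytoplasm, had 23.8 and 25.0 CPM in replicate 1 of Tet1KO and WT at 11 months and 17.7 and 23.3 CPM in those libraries of 3 months.

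Of 20 further tail genes, 7 lay above their own mean in replicate 1 of both genotypes at 11 months and 9 lay below it in both, while all 20 lay above it in Tet1KO replicate 2 and WT replicate 1 of 3 months. Spata19, a midpiece mitochondrial gene, stood at 122, 54.6 and 21.1 CPM in Tet1KO and 133, 21.2 and 19.0 CPM in WT at 11 months, highest in replicate 1 like the protamines. At 3 months Spata19 stood at 29.2, 139 and 45.1 CPM in Tet1KO and 201, 30.3 and 19.7 CPM in WT. Its Tet1KO replicate 2 of 3 months thus stood above replicate 1 of 11 months. For Prm1 that library stood below them, at 275 CPM against 641 and 722 CPM. Ropn1l, a fibrous sheath partner, stood at 19.1, 65.7 and 22.6 CPM in Tet1KO and 16.8, 29.8 and 30.6 CPM in WT at 11 months, so replicate 1 was the lowest library of its group in both genotypes. At 3 months it had 25.1, 258 and 40.2 CPM in Tet1KO and 220.3, 43.5 and 25.0 CPM in WT, like Ldhc. Odf2, a centrosome and dense fibre gene also used outside the testis, ran from 41.0 to 121 CPM over the 12 libraries. Gk2, a testis glycerol kinase, and Tekt3, a tektin of the tail's microtubules, both named after their values were seen, had 1.54 and 0.062 CPM in replicate 1 of Tet1KO at 11 months, where Prm1 had 641. The value of Tekt3 lies below the 0.18 CPM that 3 fragments give in that library, so it is at the floor.

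**Figure D3:**
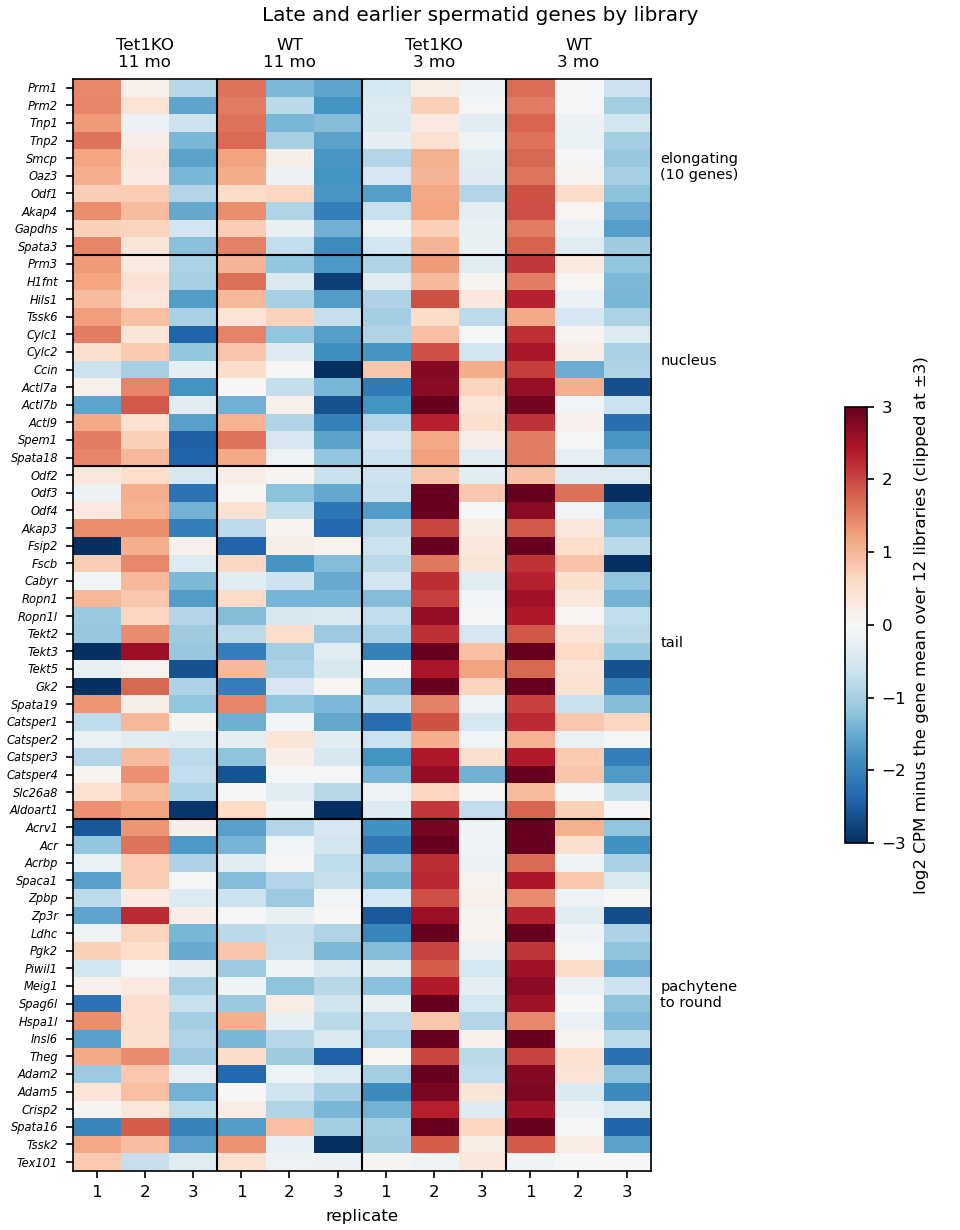
Log2 CPM of the 10 elongating spermatid genes, 12 nuclear, 20 tail and 20 pachytene to round spermatid genes in each library, with the mean of each gene over 12 libraries subtracted and colours clipped at 3 units either way. The 4 blocks of 3 columns are Tet1KO and WT at 11 months and Tet1KO and WT at 3 months. Replicate 1 of both genotypes at 11 months is red for the 10 genes and below the mean for 12 of the 20 pachytene to round genes, while Tet1KO replicate 2 and WT replicate 1 of 3 months are red for nearly all genes shown.

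Genes of meiotic prophase and of spermatogonia varied over a narrower range than the 10 genes. Over all libraries the 10 elongating spermatid genes averaged 4.23 to 7.63 log2 CPM, against 6.755 to 7.79 for the 10 meiotic genes and 5.65 to 6.29 for the 16 spermatogonial genes. At 11 months the spermatogonial mean was 5.65 and 5.91 in replicate 1 of WT and Tet1KO, where the 10 averaged 7.23 and 7.16. At 3 months it was 6.10 in WT replicate 1 and 5.89 in WT replicate 3, where the 10 averaged 7.63 and 4.84. Sycp3, of the synaptonemal complex, stood at 1211, 463 and 1679 CPM in Tet1KO and 1243, 801 and 1122 CPM in WT at 11 months. Tex15, a meiotic repair and transposon silencing gene, ran from 423 to 728 CPM and Hormad1, of the chromosome axis, from 146 to 752 CPM over the 12 libraries. Among 10 regulators of spermatid transcription and translation, Taf7l, a testis subunit of the general transcription factor TFIID, ran from 509 to 906 CPM. Tbpl1, a relative of the TATA-binding protein, had 259 and 245 CPM in Tet1KO replicate 2 and WT replicate 1 of 3 months and 125 to 166 CPM in the other libraries. Brdt, a testis bromodomain gene, ran from 45.1 to 133 CPM. Crem, whose protein is the activator named above, was looked at after its values were seen. It had 29.7 and 50.3 CPM in replicate 1 of Tet1KO and WT at 11 months and 138 and 159 CPM in Tet1KO replicate 2 and WT replicate 1 of 3 months.

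At 11 months, the fitted values of all 10 genes were higher in Tet1KO than in WT, but by little, with a median log2 fold change of 0.21 against 0.024 over all 19815 genes tested. Akap4 had the largest, 0.53 ± 1.06 (SE), followed by Gapdhs at 0.41 ± 0.75, and Prm1 stood at 0.21 ± 0.91. Tnp1 and Smcp were near 0, at 0.03 ± 0.88 and 0.05 ± 0.93. With edgeR's quasi-likelihood test, adjusted over all genes, 0 of the 10 passed 0.05, as did 0% of all genes, and 0 of the 10 had an unadjusted p under 0.05, against 326 of all genes. For 0 of the 10 genes did all Tet1KO libraries lie above or all below the WT libraries, against 2.82% of all genes that lay above and 2.54% that lay below. The median was 1.77 when WT replicate 1 was left out, -0.05 when WT replicate 2 and -0.26 when WT replicate 3 was. It was -0.58 when Tet1KO replicate 1 and 0.61 when Tet1KO replicate 3 was left out, so its sign rested on single libraries. With limma-voom and quality weights it was 0.69.

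The labels give no pairing of libraries. At 11 months, same-numbered libraries have adjacent library codes. These are AK618 and AK619 in replicate 1, AK620 and AK621 in replicate 2 and AK622 and AK623 in replicate 3. What the codes mean is not given, and whether their order has a part in the values was not tested. Same-numbered libraries of 11 months deviated together from their group means, with correlations of 0.37, 0.17 and 0.33 for replicates 1 to 3. The link is weak for replicate 2 and was read from these same libraries, so ratios within these pairs are a description. Within the pairs the 10 genes differed. In replicate 1 the ratio of Tet1KO to WT had a median of 0.96, and 2 of the 10 genes, Odf1 and Akap4, were higher in Tet1KO. In replicate 2 the median was 2.21 and in replicate 3 it was 1.49, with all 10 genes higher in Tet1KO in both. Prm1, for example, had ratios of 0.89, 2.82 and 1.67, Akap4 of 1.003, 3.63 and 1.43, and Oaz3 of 0.98, 1.36 and 1.33, in replicates 1 to 3. With the replicate number as a block the median log2 fold change was 0.48, and 0 genes passed.

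At 3 months, the fitted values of all 10 genes were lower in Tet1KO than in WT, with a median log2 fold change of -0.47 against -0.022 over all genes tested. Odf1 had -0.87 ± 0.94 (SE), Tnp1 -0.84 ± 0.89, Prm1 -0.79 ± 0.92 and Gapdhs, the smallest, -0.29 ± 0.75. By edgeR's quasi-likelihood test 0 of the 10 passed, as did 0% of all genes, and 0 of the 10 had an unadjusted p under 0.05, against 225 of all genes. The groups overlapped for all 10 genes, whereas all Tet1KO libraries lay above WT for 3.32% and below WT for 3.62% of all genes. WT replicate 1 set the sign. Without WT replicate 1 the median was 0.61 and all 10 genes changed sign, and without Tet1KO replicate 2 it was -1.06. Without both of these libraries, which stood apart on the first component, the median was 0.0154, with 5 genes higher and 5 lower. It was -0.16 without Tet1KO replicate 1 and -0.27 without Tet1KO replicate 3, and -0.73 without WT replicate 2 and -0.88 without WT replicate 3. Without the DY libraries it was -0.41, and a comparison within the DY code has 1 library a group.

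**Figure D4:**
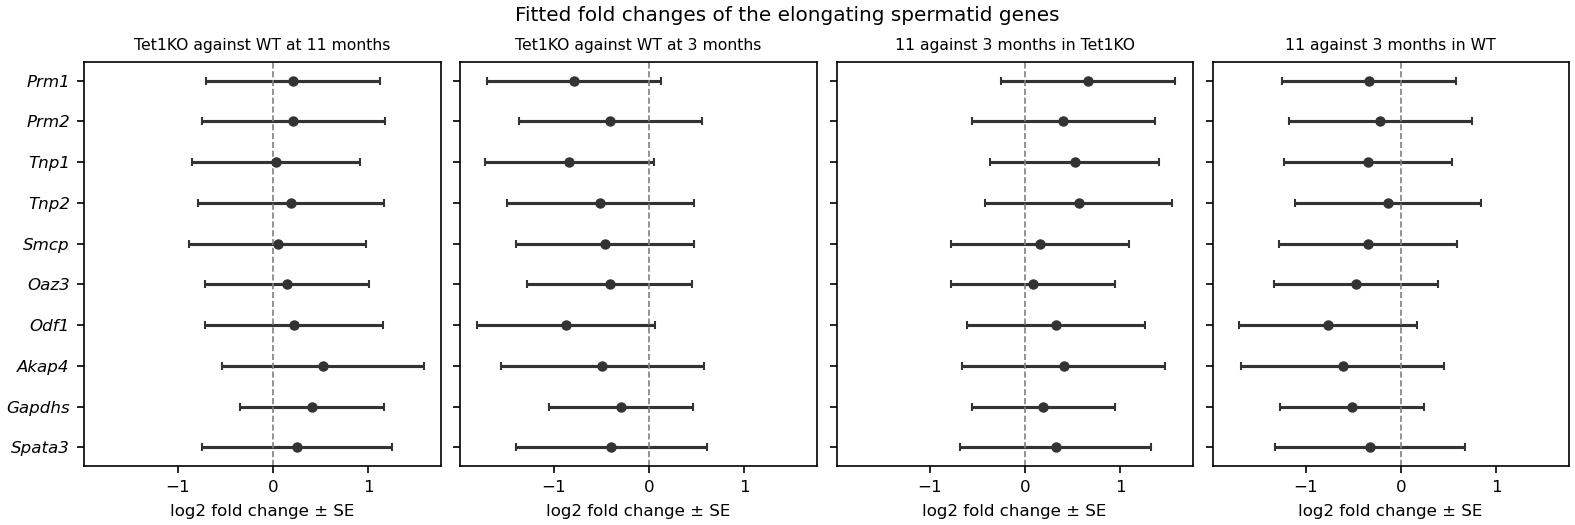
Fitted log2 fold change of each of the 10 genes with its SE as bar, in the 4 comparisons of 2 groups, with a dashed line at 0. The 10 genes lie on the same side of 0 in each panel, with Akap4 at 0.53 ± 1.06 for Tet1KO against WT at 11 months and Prm1 at -0.79 ± 0.92 at 3 months, and every bar crosses 0.

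Between ages, Tet1KO libraries of 11 months had higher fitted values than those of 3 months for all 10 genes, with a median log2 fold change of 0.37 against -0.014 over all genes tested. Prm1 had 0.67 ± 0.91 (SE) and Oaz3 0.09 ± 0.86. By the same edgeR test 0 of the 10 passed, as did 0% of all genes, and 0 had an unadjusted p under 0.05, against 462 of all genes. The ages overlapped for all 10 genes in Tet1KO, whereas 3.1% of all genes lay wholly higher and 3.09% wholly lower at 11 months. The median was -0.35 without Tet1KO replicate 1 of 11 months, 0.84 without Tet1KO replicate 2 of 3 months, 0.82 without replicate 3 of 11 months, 0.09 without replicate 1 of 3 months and 0.19 without replicate 3 of 3 months. Without the DY libraries, which are all of 3 months, it was 0.09 with 7 genes higher and 3 lower.

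In WT, libraries of 11 months had lower fitted values than those of 3 months for all 10 genes, with a median of -0.35 against -0.058 over all genes tested. Odf1 had -0.77 ± 0.94 (SE), Akap4 -0.61 ± 1.06 and Tnp2 -0.13 ± 0.98. By the same edgeR test 0 of the 10 passed, as did 0% of all genes, and 0 had an unadjusted p under 0.05, against 1124 of all genes. The ages overlapped for all 10 genes in WT, whereas 5.42% of all genes lay wholly higher and 6.12% wholly lower at 11 months. The median was -1.78 without WT replicate 1 of 11 months, 0.72 without WT replicate 1 of 3 months, where all 10 genes changed sign, and 0.14 without WT replicate 3 of 11 months. It was -0.12 without WT replicate 2 of 11 months, -0.64 without replicate 2 and -0.70 without replicate 3 of 3 months, and -0.58 without the DY libraries, and -0.60 with limma-voom and quality weights. Both age comparisons and both genotype comparisons draw on the same 12 libraries, so the 4 medians are not independent of each other.

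The difference between the genotype effects at 11 and at 3 months had a median log2 value of 0.70, against 0.058 over all genes, with all 10 genes above 0. Odf1 had the largest, 1.09 ± 1.32 (SE), then Akap4 at 1.02 ± 1.504 and Prm1 at 0.9985 ± 1.29. By edgeR's interaction test 0 of the 10 passed, as did 0% of all genes, and 0 had an unadjusted p under 0.05, against 311 of all genes. The median was 0.09 without the libraries that stood apart on the first component, and -0.40 without WT replicate 1 of 3 months. It was 0.0022 without Tet1KO replicate 1 of 11 months and 2.16 without WT replicate 1 of 11 months. Leaving out replicate 2 or 3 of WT at 11 months gave 0.435 and 0.24, and replicate 3 of Tet1KO at 11 months 1.08. Leaving out Tet1KO replicate 2 of 3 months gave 1.22, and WT replicate 3 of 3 months 1.09.

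The companion lists moved as the libraries did, and 0 of their genes passed in any of the 5 comparisons, as 0% of all genes did. At 11 months 11 of the 12 nuclear genes, 18 of the 20 tail genes and 18 of the 20 pachytene to round spermatid genes had higher fitted values in Tet1KO, with medians of 0.38, 0.78 and 0.52. At 3 months 3 of 12, 7 of 20 and 12 of 20 were higher in Tet1KO, with medians of -0.15, -0.04 and 0.07. In WT at 11 against 3 months the 10 genes had a median of -0.35, the pachytene to round list -1.86 and the tail list -1.715. The 10 meiotic genes had 6 higher in Tet1KO at 11 months and 4 at 3 months, with medians of 0.06 and -0.08. The 16 spermatogonial genes had 8 and 11, with medians of 0.004 and 0.10, and the 10 regulators had 3 and 5, with medians of -0.10 and 0.006.

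Markers of other testis cells were also present. The 10 Sertoli cell genes summed to 356.4 to 399 CPM in Tet1KO and 404 to 502 CPM in WT at 11 months, and to 359 to 399 CPM in Tet1KO and 382 to 683 CPM in WT at 3 months, where 683 was in WT replicate 1. Ctsl, a lysosomal protease gene also used elsewhere, made up 296 to 440.4 CPM of these sums. Of the other Sertoli genes, Clu ran from 3.62 to 105 CPM and Cst12 from 1.21 to 102 CPM, both highest in WT replicate 1 of 3 months, while Sox9 and Amh stayed at or below 3.86 and 1.07 CPM. These 5 genes were named after their values were seen. Of the 9 Sertoli genes tested, 9 had lower fitted values in Tet1KO at 3 months, with a median log2 fold change of -1.58, where the 10 spermatid genes were also lower, and 8 had lower values in Tet1KO at 11 months, with a median of -1.31, where the 10 were higher. The 5 peritubular genes summed to 22.9 to 54.0 CPM in Tet1KO and 68.9 to 229 CPM in WT at 11 months, and to 73.9 to 356 CPM in Tet1KO and 92.7 to 339 CPM in WT at 3 months. All 5 had lower fitted values in Tet1KO at 11 months, with a median of -1.98, and 4 of 5 had higher ones at 3 months, with a median of 0.34. The 6 leukocyte genes summed to 265 to 549 CPM in Tet1KO and 47.0 to 554 CPM in WT at 11 months, and to 167 to 362 CPM in Tet1KO and 170.4 to 345 CPM in WT at 3 months. All 6 had higher fitted values in Tet1KO at 11 months, with a median of 0.72, and 5 of 6 had lower ones at 3 months, with a median of -0.305. None of these somatic genes passed the edgeR test in any of the 5 comparisons. In Tet1KO against WT, unadjusted edgeR p was under 0.05 for 4 of the 5 peritubular genes and 1 leukocyte gene at 11 months. At 3 months it was so for 3 of the 9 Sertoli genes. In 11 against 3 months it was so for 4 peritubular genes in Tet1KO and 1 Sertoli gene in WT, and in the interaction for 2 peritubular genes. DESeq2 passed the peritubular gene Myl9, named after its values were seen, in 11 against 3 months in Tet1KO (adjusted p 0.0413). The 5 Leydig genes summed to at most 13.2 CPM, with at least 1 of them at 0 in every library. The haemoglobin genes were at 0 in all libraries but WT replicate 1 of 3 months, with 0.15 CPM. Whether these cells have a part in the values of the 10 genes was not tested.

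The somatic relatives of Oaz3 and Gapdhs did not follow them. Oaz3 ran from 37.4 to 396 CPM over the 12 libraries, while Oaz1 and Oaz2, antizymes of most tissues, ran from 947 to 1328 CPM and from 73.9 to 126 CPM. Gapdhs ran from 4.03 to 38.9 CPM, while Gapdh ran from 15.5 to 20.7 CPM. Gapdh has near-identical copies in the genome, so its counts are uncertain.

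The 10 other genes whose log2 CPM most resembled the mean of the 10 over 12 libraries were 1700001O22Rik, with a Pearson correlation of 0.99, Iqcf3 and Cabs1 at 0.98, 1700019M22Rik, Fam71f2, Fam71e1, Hmgb4, Tex35, 1700024P04Rik and Lelp1, the last at 0.97. 1700001O22Rik ran from 5.04 to 59.0 CPM, Cabs1, a calcium-binding protein gene of spermatids, from 9.10 to 122 CPM, and Hmgb4, a testis member of the high mobility group box family, from 22.6 to 222 CPM. They were chosen for this likeness out of all tested genes, so the correlations are a description of these 12 libraries.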

How the data were processed

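The deposited values are raw counts of fragments per gene, beside the exon length of each gene in bases. Per the file headers, counting used featureCounts 1.6.2 on GENCODE vM17, without strand, with a mapping quality minimum of 30. The options to count multi-mapping and multi-overlapping fragments were set. Whether any multi-mapping fragments passed the mapping quality minimum is not given. The submitters' processing notes name HISAT2, SAMtools and mm10, without versions. Symbols came from a GENCODE vM21 table (53620 of 53715 genes matched).

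From these counts, edgeR 4.0.16 in R 4.3.3 (filterByExpr, TMM scaling, robust quasi-likelihood fit of 4 group means over 12 libraries, two-sided, Benjamini-Hochberg over 19815 genes, threshold 0.05) gave fold changes and p-values. Each SE given with an edgeR fold change is the absolute log2 fold change divided by the square root of the test's F statistic. Log2 CPM used a prior count of 2. The edgeR test was run first on simulated counts with known fold changes, drawn independently for each gene and library. That run did not cover deviations shared across genes, and nothing here is drawn from it. Alternatives were other scalings and filters, DESeq2 1.42.0, voom with quality weights in limma 3.58.1, only the compared groups, the replicate number as block, and libraries left out. Same-numbered libraries of 11 months deviated together (correlations 0.37, 0.17 and 0.33 of deviations from the group means), from the data and not from the labels. No pair of libraries in a group agreed within counting error, a check made only to find a repeated deposit of 1 library.

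The members and lists were chosen with earlier results of these data known. Genes named are the 10 members, the 3 highest genes of each companion list by mean CPM, the 10 genes most correlated with the members' mean, and Gapdh, Oaz1 and Oaz2; all other genes named with a level were named after their values were seen, except Tet1, the targeted gene. Proteins were not analysed here.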

Additional observations from a re-analysis of the deposited data

How the results depend on the processing

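edgeR called 0 genes and 0 of the 10 spermatid genes in all 5 comparisons, with other scalings and filters and with single libraries left out. With all libraries, unadjusted p was under 0.05 for 326, 225, 462, 1124 and 311 genes and 0 of the 10. Without WT replicate 1 of 11 months, 2 of the 10 were under it in Tet1KO against WT at 11 months, in 11 against 3 months in WT and in the interaction, and without Tet1KO replicate 2 of 3 months 1 was at 3 months. DESeq2 called 3 genes in Tet1KO against WT at 11 months, 2 at 3 months and 7 in 11 against 3 months in Tet1KO, none of them among the 10, and 0 in the other comparisons, and limma-voom called 0 in each, with medians of 0.69 for Tet1KO against WT at 11 months and -0.60 for 11 against 3 months in WT. The signs of the 10 genes were kept under every scaling and filter tried. They depended on which libraries were in the fit. Leaving out 1 library at a time, the median log2 fold change of the 10 ran from -0.58 to 1.77 in Tet1KO against WT at 11 months, from -1.06 to 0.61 at 3 months, from -0.35 to 0.84 in 11 against 3 months in Tet1KO, from -1.78 to 0.72 in WT, and from -0.40 to 2.16 for the interaction. An alternative chosen after seeing the data left out replicate 1 of both genotypes at 11 months; its median was -1.81 for 11 against 3 months in WT (3 of the 10 at an unadjusted p under 0.05), -0.35 in Tet1KO and 0.92 for Tet1KO against WT at 11 months. The cause was not tested. With the replicate block the medians were 0.48 at 11 months, -0.09 at 3 months and 0.50 for the interaction, and 0 genes passed. At 3 months same-numbered libraries did not deviate together (correlations -0.59, -0.18 and 0.30), so the numbers are only names there. No block fit was made for the age comparisons, since the numbers are nested in age. Within groups the 10 genes spread by an SD of 1.08 to 1.54 log2 units.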
